A study of Mus musculus with 2 samples.

Results

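The miR-379 to miR-410 cluster is a run of miRNA genes on the plus strand of mouse chromosome 12, inside the imprinted Dlk1-Dio3 domain. Its members were defined by position: every miRNA gene row of the tables that lies on that strand within a 42-kb window of mm10 around the cluster. This gave 34 of the 1973 gene rows, from Mir379 (chr12:109709060-109709125) to Mir3072 (chr12:109747878-109747960), a span of 38901 bases. All values come from microRNA-seq of the neural tube of B6NCrl mouse embryos at embryonic day 13.5. The 2 libraries are biological replicates of that 1 condition. Each was made from healthy male and female embryos pooled together, and the labels give the tissue samples separate entries under 1 shared donor entry. No other stage, genotype or treatment is analysed here, so the members are compared with each other and with other miRNA genes.

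Most miRNAs are cut by Drosha from a hairpin in a longer transcript and then by Dicer into 2 arms, named 5p and 3p, and the loaded arm pairs with mRNAs mainly through its seed. In the Dlk1-Dio3 domain the long transcripts Meg3, Rian and Mirg and the small RNAs between them are made from the maternal chromosome. In neurons the transcription factor Mef2 raises the cluster's expression, and its best known member, miR-134, restrains the growth of dendritic spines through Limk1. Other members, among them miR-369-3p, miR-496 and miR-543, have been linked to the control of N-cadherin in newborn neurons.

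The mature arms below belong to the members that lead the cluster and to members that share a seed; capitals mark the seed, bases 2 to 8 from the 5′ end. Sequences are those of RefSeq on GRCm38.p6, the assembly also called mm10, and gene positions are those of GENCODE M21 on it. Sequences were matched by symbol for 33 of the 34 members, with 61 arms. The first set holds arms of the 6 most abundant members.
miR-487b-5p: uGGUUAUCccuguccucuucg
miR-369-5p: aGAUCGACcguguuauauucgc
miR-369-3p: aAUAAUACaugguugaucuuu
miR-382-5p: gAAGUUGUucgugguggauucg
miR-382-3p: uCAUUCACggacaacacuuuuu
miR-411-5p: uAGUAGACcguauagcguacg
miR-411-3p: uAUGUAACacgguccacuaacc
miR-381-3p: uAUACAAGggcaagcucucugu
miR-541-5p: aAGGGAUUcugauguuggucacacu

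The next set holds arms that carry the seed of another member. The partner of miR-379-3p is miR-411-3p, printed above, and the other partners follow each other in pairs. The last arm, miR-300-3p, to be read beside miR-381-3p above, is shown because the arms differ by an edit distance of only 3 while their seeds are not the same.
miR-379-3p: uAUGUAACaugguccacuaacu
miR-379-5p: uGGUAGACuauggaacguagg
miR-1193-5p: uGGUAGACcggugacguaca
miR-494-5p: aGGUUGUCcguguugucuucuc
miR-410-5p: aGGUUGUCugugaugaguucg
miR-453: aGGUUGCCucauagugagcuugca
miR-496a-5p: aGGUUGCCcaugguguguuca
miR-758-5p: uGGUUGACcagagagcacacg
miR-1197-5p: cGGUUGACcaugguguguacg
miR-300-3p: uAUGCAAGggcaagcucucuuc

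The libraries held 7019469 same-strand counts on miRNA genes in replicate 1 and 5738209 in replicate 2. Same-strand counts are reads that map to the strand of the gene. Reads that mapped to several places, 28.5% and 31.0% of all reads, were set apart and belong to no gene. Levels are given as CPM, the same-strand counts of a gene scaled so that each library's same-strand counts sum to 1000000. Each row covers a whole hairpin, so a level sums both arms, and ligation preferences of small RNA libraries are not removed from it. Of the 12 neural marker genes listed, 10 had a row and 7 had at least 10 counts in each library, with summed levels of 8551 and 8734 CPM. Mir137 stood at 5025 and 5168 CPM, Mir219a-2 at 2360 and 2342, Mir9-3 at 373 and 415 and Mir128-1 at 360 and 400. The 3 copies of the neuronal gene Mir124a were low, with 1 and 0 counts for Mir124a-3, 14 and 8 for Mir124a-1 and 31 and 15 for Mir124a-2. Their mature miRNA is common to the copies, and how many of its reads are among those set apart was not measured. Markers of other cell types were present, with endothelial Mir126a at 17134 and 16019 CPM and the 6 mesenchymal genes, 5 of them detected, at 8467 and 10448 CPM summed. The 6 epithelial genes summed to 141 and 205 CPM, the 2 erythroid genes to 62.8 and 35.6 and hepatic Mir122 to 118 and 30.7. Of 5 muscle genes listed, 4 had a row and 1 was detected, with 118 and 373 CPM summed and Mir133a-1 and Mir133a-2 at 0. For the Mir133a copies too, and for other markers with several copies, the reads set apart were not measured. The part of other cell types in the levels below was not tested. In bulk tissue, fewer cells that make a miRNA and less of it per cell cannot be told apart.

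The cluster held 275793 counts in replicate 1 and 232230 in replicate 2. That is 3.93% of the counts in replicate 1 (Wilson 95% interval 3.91 to 3.94) and 4.05% in replicate 2 (4.03 to 4.06), a mean of 3.99% ± 0.084 (SD, n = 2). Intervals cover counting error only, since reads that carry no molecular identifier may be copies of one molecule. Of the 34 members, 30 had at least 10 counts in each library, or 88.2%, beside 18.8% of all gene rows. At least 100 counts in each library were reached by 29 members (85.3%), beside 13.8% of all rows. Only Mir654 and Mir453 had 0 counts in both libraries, 5.88% of the members, where 63.2% of all rows had none. A count of 0 allows up to 0.427 CPM in replicate 1 and 0.523 CPM in replicate 2. Mir1197 had 6 and 7 counts and the predicted gene Gm27379 had 2 and 4.

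Although nearly the whole cluster was detected, its counts were concentrated in a few hairpins. Mir487b (chr12:109727333-109727414) stood at 14097 CPM in replicate 1 and 13850 in replicate 2, and alone held 35.1% ± 1.17 of the cluster's counts. It ranked 12 among all miRNA genes and was the 1 member among the 20 most abundant genes. The 3 highest members together held 60.2% ± 0.35, the 5 highest 76.3% ± 0.60 and the 10 highest 91.8% ± 0.10 of the cluster. The remaining 8.15% was spread over the others, which for ranks 11 to 30 ran from 582 CPM for Mir543 down to 7.60 CPM for Mir544. The level exceeded 1000 CPM for 7 members, among 79 genes of the whole table that did so.

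Mir369 (chr12:109743418-109743496) was the next highest, at 5624 and 6040 CPM. Its arm miR-369-3p is known to act on AU-rich elements in mRNA. Mir382 (chr12:109733771-109733846) followed at 4018 and 4362 CPM and Mir411 (chr12:109710175-109710256) at 3641 and 4118 CPM. The ranges of these last 2 genes overlapped, so their order was not resolved, whereas Mir487b and Mir369 stood apart from each other and from all lower members.

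Mir381 (chr12:109726822-109726896) reached 2416 and 2666 CPM, and Mir541 (chr12:109742409-109742498) 2432 and 1915 CPM. These 2 also overlapped, because Mir541 was the higher in replicate 1 and Mir381 in replicate 2. Mir379, the first hairpin of the cluster, stood at 1417 and 1612 CPM.

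Mir134 (chr12:109734139-109734209), the regulator of dendritic spines, was at 864 CPM in replicate 1 and 1021 in replicate 2. Mir154 had 756 and 905 CPM and Mir323 792 and 711 CPM, and the ranges of neighbours among these 3 genes overlapped. Of the 10 highest members, 7 were higher in replicate 2 than in replicate 1, and 7 also by the log2 ratio described below. By that ratio, 13 of the 29 members with at least 100 counts summed were higher, beside 155 of all 306 such genes.

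The 2 other members linked to N-cadherin were lower than Mir369. Mir543 stood at 592 and 571 CPM and Mir496a at 131 and 179 CPM. Mir485, whose product acts at synapses on the vesicle protein SV2A, had 216 and 217 CPM. The hairpin that lends the cluster its 3′ name, Mir410, had 96.3 and 95.7 CPM, far below Mir379 at the other end. The last member by position, Mir3072, had 22.9 and 21.1 CPM.

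Over the 30 detected members, replicate SDs ranged from 0.463% to 28.2% of the mean level, with a median of 6.22%, while levels spanned 1838-fold. Of the 29 pairs of neighbours in the order of levels, 12 had ranges that overlapped, most of them between Mir667 and Mir539 in the lower part of the order.

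**Figure D1:**
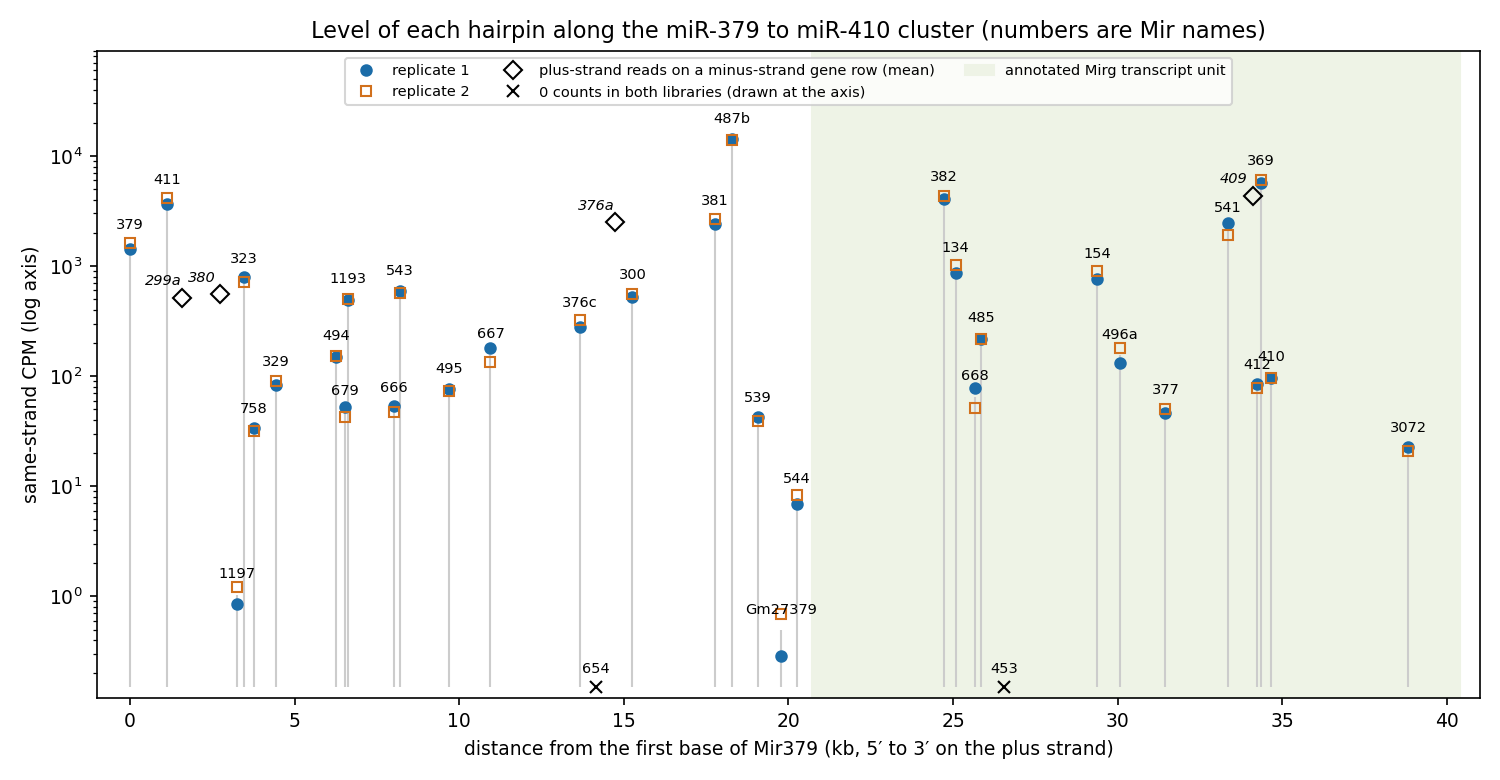
Level of each member along the cluster, as same-strand CPM on a log axis against the distance from the first base of Mir379 in kb; circles and squares are the 2 libraries, and diamonds are plus-strand reads counted on a minus-strand gene row. High and low hairpins lie side by side in each part of the cluster, with Mir487b highest at a mean of 13973 CPM and Mir654 and Mir453 at 0 counts.

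Along the chromosome the levels showed no gradient from the 5′ to the 3′ end. Across the 30 detected members, Pearson's r between log2 level and position was -0.04 and Spearman's rho was -0.05. The level of a member and that of the next detected member downstream had an r of -0.03 over 29 pairs. These values describe hairpins of the same 2 libraries, which are not independent.

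Adjacent hairpins differed widely even where they lay a few bases apart. Mir412 and Mir369 are separated by 49 bases, yet Mir412 stood at 84.6 and 78.2 CPM against 5624 and 6040 for Mir369. The log2 ratio was 6.05 in replicate 1 and 6.27 in replicate 2. Its mean of 6.16, a 71.6-fold difference, far exceeded its SD of 0.15. On the other side of Mir369, 218 bases downstream, Mir410 was 60.7-fold lower than Mir369. Mir679 and Mir1193 lie 20 bases apart and differed 10.5-fold, in favour of Mir1193 at 490 and 502 CPM.

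Mir666 and Mir543, with 74 bases between them, differed 11.5-fold in favour of Mir543. Mir323 exceeded Mir758, 216 bases downstream, 23.0-fold. The most extreme steps between neighbours surrounded a trough in the middle of the cluster: from Mir487b down to Mir539 by 340.0-fold over 714 bases, and from Mir544 up to Mir382 by 554-fold over 4368 bases. Mir544 had 48 counts in each library. Of all 29 adjacent pairs, 26 differed by more than 2-fold and 19 by more than 4-fold. Of the 9 pairs under 500 bases apart, all 9 differed by more than 2-fold and 7 by more than 4-fold. Their median difference was 10.5-fold, beside 4.93-fold for the 20 pairs farther apart. Each pair kept its direction in both libraries. Pairs join detected members only, so a hairpin with no row or under 10 counts was passed over. Mir409, for example, lies between Mir541 and Mir412 and had no row among the members.

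Divided into 3 segments of 14 kb, the window held 13 members in the 5′ segment (up to 109721999), 13 in the middle (109722000 to 109735999) and 8 in the 3′ segment (from 109736000 on). The 5′ segment held 19.2% of the cluster's counts in replicate 1 and 19.98% in replicate 2, the middle segment 57.4% and 57.1%, and the 3′ segment 23.4% and 22.9%. The middle segment was thus the largest in both libraries. This order of shares rested on Mir487b. Without it, the shares were 30.0% and 30.4% for the 5′ segment, 33.5% and 34.7% for the middle and 36.5% and 34.9% for the 3′ segment. The 3′ segment was then the largest in both libraries, though barely in replicate 2. Members above 1000 CPM lay in every segment: Mir379 and Mir411 in the 5′ segment, Mir487b, Mir382 and Mir381 in the middle, and Mir369 and Mir541 in the 3′ segment. The median level of the detected members, Mir487b included, was 154 CPM in the 5′ segment, 420 in the middle and 125 in the 3′ segment.

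The annotated transcript unit Mirg (chr12:109729764-109749460, plus strand, GENCODE M21) covers 13 of the 34 members. Of these, 4 lie fully in an exon of some Mirg transcript (Mir134, Mir485, Mir377 and Mir410), 5 overlap one in part and 4 lie in introns. These 13 members held 36.6% and 36.9% of the cluster's counts. The other 21 members, Mir487b among them, lie outside Mirg.

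**Figure D2:**
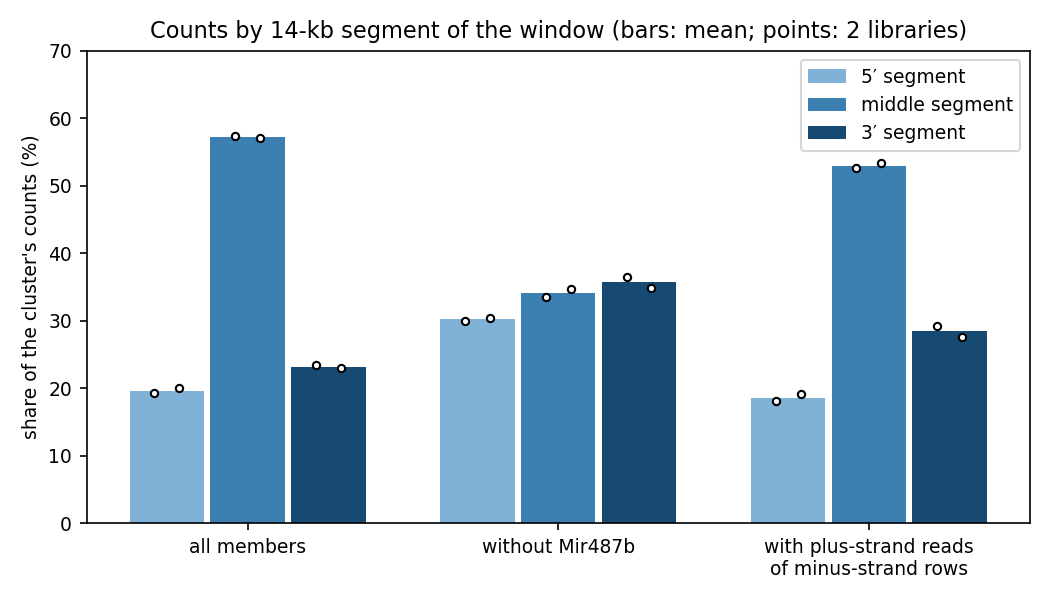
Share of the cluster's counts in each 14-kb segment of the window, in percent, for all members, without Mir487b, and with the plus-strand reads of minus-strand rows added; bars are means and points the 2 libraries. The middle segment holds 57.2% with all members and 34.1% without Mir487b, where the 3′ segment holds 35.7%.

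By seed, the cluster was diverse. The table gives 2 arms for 28 members, 1 arm for 5 (Mir487b, Mir376c, Mir539, Mir485 and Mir453) and none for Gm27379, and the counts of seeds cover these 61 arms only. They carried 56 seeds, of which 5 occurred in more than 1 member, in 9 genes that together held 15.9% ± 0.97 of the cluster's counts. Since a gene's count sums its arms, these are the counts of genes with an arm of the seed, not of the seed itself, and Mir379 counts in 2 families. The seed AUGUAAC, of miR-379-3p and miR-411-3p, marked the most abundant of these families, with 35510 counts in replicate 1 and 32883 in replicate 2, or 5395 ± 475 CPM and 13.5% ± 0.91 of the cluster. The printed arms miR-379-3p and miR-411-3p differ by an edit distance of 2. Their genes are the first 2 members by position, 1049 bases apart, with Mir411 the higher by 2.56-fold in a ratio that hardly moved between libraries (log2 1.36 and 1.35).

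The seed GGUAGAC, of miR-379-5p and miR-1193-5p, marked 2011 ± 146 CPM or 5.04% ± 0.26, and these letters occurred in 0 of the 1665 mouse arms outside the window. Mir1193 contributed 490 and 502 CPM to it. The remaining families were low. GGUUGUC, of miR-494-5p and miR-410-5p, stood at 246 ± 1.15 CPM. Within it, Mir494 (149 and 151 CPM) exceeded Mir410 in both libraries.

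GGUUGCC, of miR-496a-5p and miR-453, stood at 155 ± 34.4 CPM, all from Mir496a, since Mir453 had no counts. GGUUGAC, of miR-758-5p and miR-1197-5p, stood at 33.6 ± 1.21 CPM, with Mir758 at 33.6 and 31.5 CPM and Mir1197 near 1 CPM. Counted by bases 2 to 7 only, 2 more families appeared: AAGUUG, of miR-495-5p and miR-382-5p, at 10.7% ± 0.38 of the cluster, and GAGGUU, of miR-329-5p and miR-377-5p, at 0.340% ± 0.013. In AAGUUG, nearly all counts were those of Mir382, with Mir495 at 76.5 and 72.8 CPM. In GAGGUU, Mir329 had 83.1 and 91.0 CPM and Mir377 46.7 and 50.4.

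**Figure D3:**
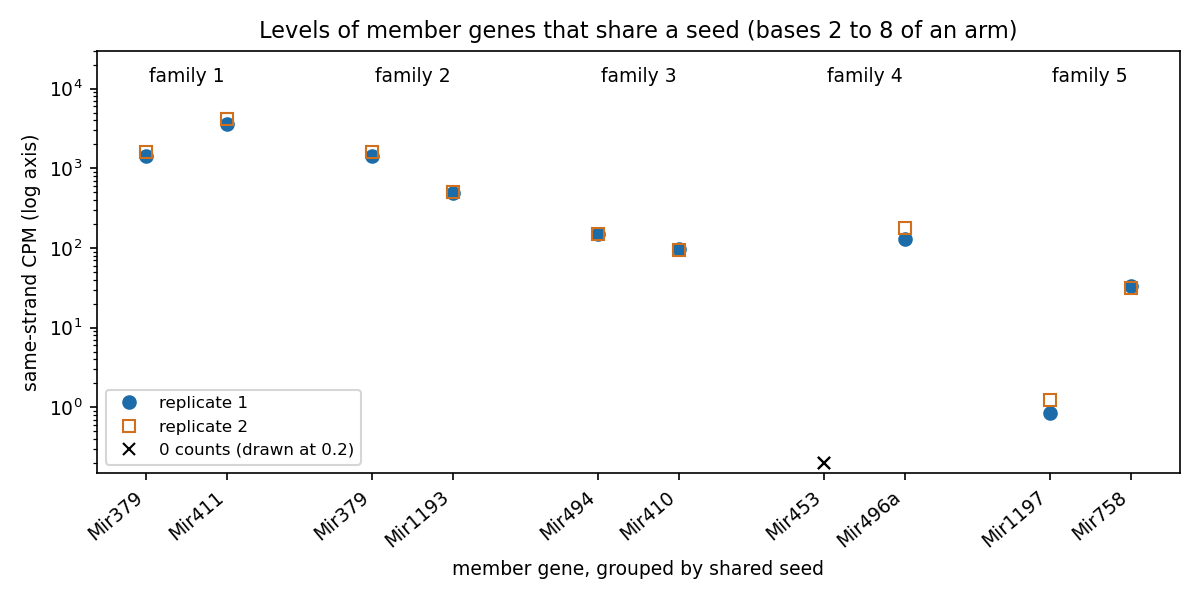
Same-strand CPM, on a log axis, of the member genes that share a seed, with circles and squares for the 2 libraries; families are numbered 1 to 5 in the order of their summed level, which is the order of the text, and Mir379 appears in 2 of them. Levels fall from family 1, at 5395 CPM summed, to family 5, at 33.6 CPM.

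Several seeds of the cluster also occurred in miRNA genes elsewhere, 9 of the 56. Mir1193 shares the seed AGGUCAC, on its arm miR-1193-3p, with miR-370-5p of Mir370, another maternally expressed gene of the domain, at 622 and 584 CPM. Mir329 shares ACACACC, on miR-329-3p, with miR-362-3p, whose gene Mir362 stood at 33.8 CPM beside 87.0 for Mir329. Mir377 shares GAGGUUG with miR-672-5p, whose gene stood at 141 CPM beside 48.5 for Mir377. The most abundant outside partner was Mir1983, whose miR-1983 shares UCACCUG with miR-412-3p, at 1474 CPM beside 81.4 for Mir412. The other 5 seeds had outside genes of 0 to 6.97 CPM in sum.

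Short runs of letters also recurred among the arms, inside or outside the seed. The letters GGUUG occurred in 11 of the 61 arms (18.0%), each from a different gene, beside 43 of the 1665 mouse arms outside the window (2.58%), where copies of a miRNA count separately. CACGG occurred in 6 of 61 (9.84%) beside 18 of 1665 (1.08%). These letters, searched on the arm's own strand, were chosen after the sequences were seen. Of the 61 arms, 27 began with U, 23 with A, 7 with G and 4 with C.

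Only 4 members share a stretch of 20 bases with a miRNA hairpin at another place, the length set here for possible shared reads. Mir411 and Mir758 share 21 bases, of which 12 lie in miR-411-3p and 9 in miR-758-3p. Mir376c shares 31 bases with Mir376b, 18 of them in miR-376c-5p, and Mir376b itself is not analysed here. Mir376c stood at 277 and 320 CPM. Mir487b shares 20 bases with Mir376b, none of them in miR-487b-5p, the 1 arm of Mir487b in the table. How many reads these stretches moved out of the counts was not measured.

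The 2 libraries gave nearly the same profile. Log2 CPM values of the 30 detected members had a Pearson r of 0.997, which describes genes and not replicates. Differences between the libraries are given as the log2 ratio of replicate 2 to replicate 1, with TMM scaling, a method that sets the bulk of genes to no difference. They were taken over the 29 members with at least 100 counts summed. Their median was -0.02, beside 0.01 over all 306 such genes of the table, and their SD was 0.22, beside 0.38. Of the 29 members, 16 were lower in replicate 2 (55.2%), beside 49.3% of the 306 genes. With 1 library on each side these differences have no replicate check, and an exact sign-flip test of 2 libraries cannot go below a p of 0.5.

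Of the members, 1 passed a difference of 0.5 either way, 3.45% of those tested, beside 9.48% of the 306 genes. That 1 was lower in replicate 2, beside 5.56% of the 306 genes, and 0 were higher by as much, beside 3.92%. It was Mir668, with 544 and 297 counts and a difference of -0.61 (exact 95% counting interval -0.82 to -0.41). No member passed 1, beside 2.94% of the 306 genes. Mir667 was the next lowest at -0.43 (-0.57 to -0.30), with 1255 and 777 counts. Mir541 followed at -0.38 (-0.41 to -0.34), with 17071 and 10991.

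The highest differences were those of Mir496a at 0.42 (0.29 to 0.55), Mir154 at 0.23 (0.17 to 0.28) and Mir134 at 0.21 (0.15 to 0.26). Mir154 and Mir496a are neighbours, 620 bases apart, and Mir541, farther downstream, had a difference of the other sign. Across the 29 members the difference had an r of 0.04 with position. In 17 of the 29 the counting interval did not include 0. The same share over all genes was not computed, so this count is not read as a trait of the members. Reads that are copies of one molecule would make such intervals too narrow. Comparing the members' counts between libraries gave a chi-square of 40.5 for each degree of freedom, across 30 genes, and the common coefficient of variation from edgeR, fitted on 371 genes of the whole table, was 17.3%.

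**Figure D4:**
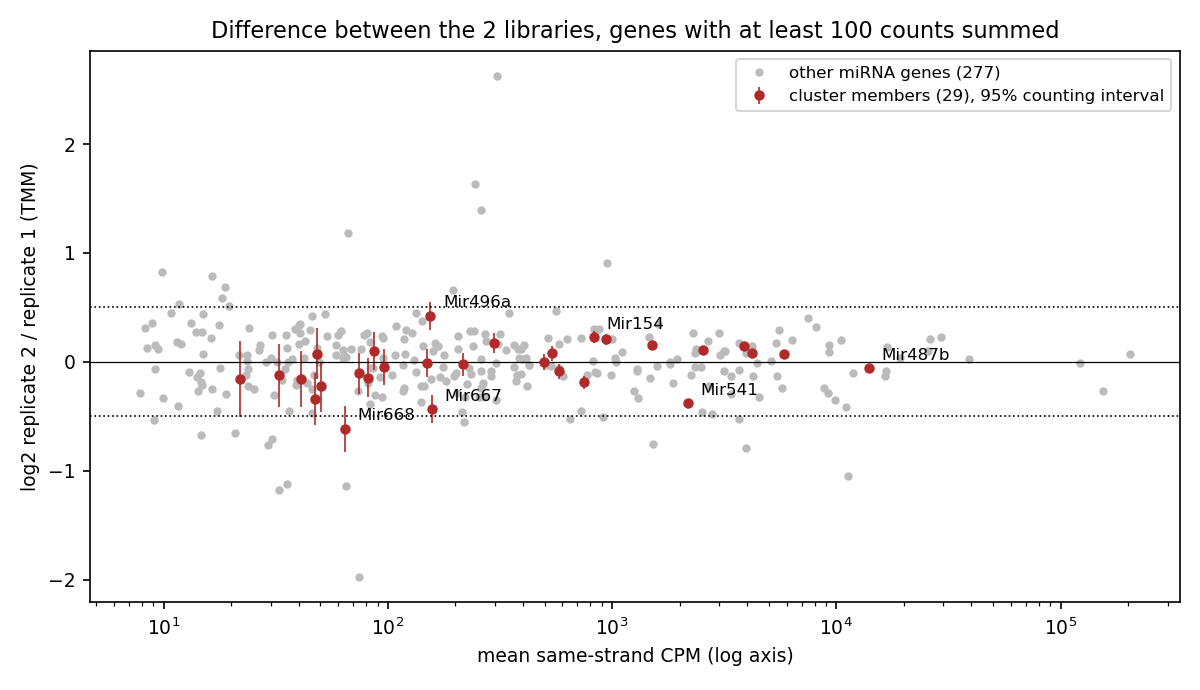
Log2 ratio of replicate 2 to replicate 1 against the mean CPM on a log axis, for the 306 genes with at least 100 counts summed; red points are the 29 members with exact 95% counting intervals, and dotted lines mark 0.5 either way. The members lie between -0.61 and 0.42, and Mir668 is the 1 member outside the dotted lines.

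Set beside other groups of linked miRNA genes, the cluster held a larger share of all counts than the upstream list and the miR-17-92 list, and its median level was lower. The 17 genes with a row among 19 listed upstream in the Dlk1-Dio3 domain, in or near Meg3, Rtl1 and Rian, held 1.36% ± 0.0053 of all counts, against 3.99% for the cluster. Counting every row, zeros included, the median level was 140 CPM in replicate 1 and 143 in replicate 2 for the cluster, against 321 and 354 for the upstream list and 0 for all gene rows. The upstream list was led by Mir127, which lies antisense to Rtl1, at 5605 and 5237 CPM, followed by Mir431 at 2508 and 2480. In it, 14 of 17 genes reached 10 counts in both libraries. Mir136 and Mir3544, also on that list, had no row and are not part of its share.

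Among genes that reached 10 counts in both libraries, the SD of log2 levels was 2.68 and 2.73 in the 2 libraries for the 30 cluster members. For the 14 upstream genes it was 2.47 and 2.41. The 5 genes analysed of the miR-17-92 list, hairpins of 1 short transcript, spread by 4.97 and 4.99, from Mir17 at 18686 and 19622 CPM to Mir19b-1 at 7.12 and 7.67. Mir92a-1, also on that list, had no row. How many reads of the miR-17-92 genes, Mir19b-1 among them, were set apart as multimapping was not measured. Over all 371 genes the SD was 3.64 and 3.66. Levels were thus unequal within each of the 3 groups, and the 2 libraries gave nearly the same SDs. In the most abundant gene's share of its own group, Mir487b with 35.1% was below Mir127 with 39.97% and Mir17 with 63.0%. Whether the groups differ was not tested.

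**Figure D5:**
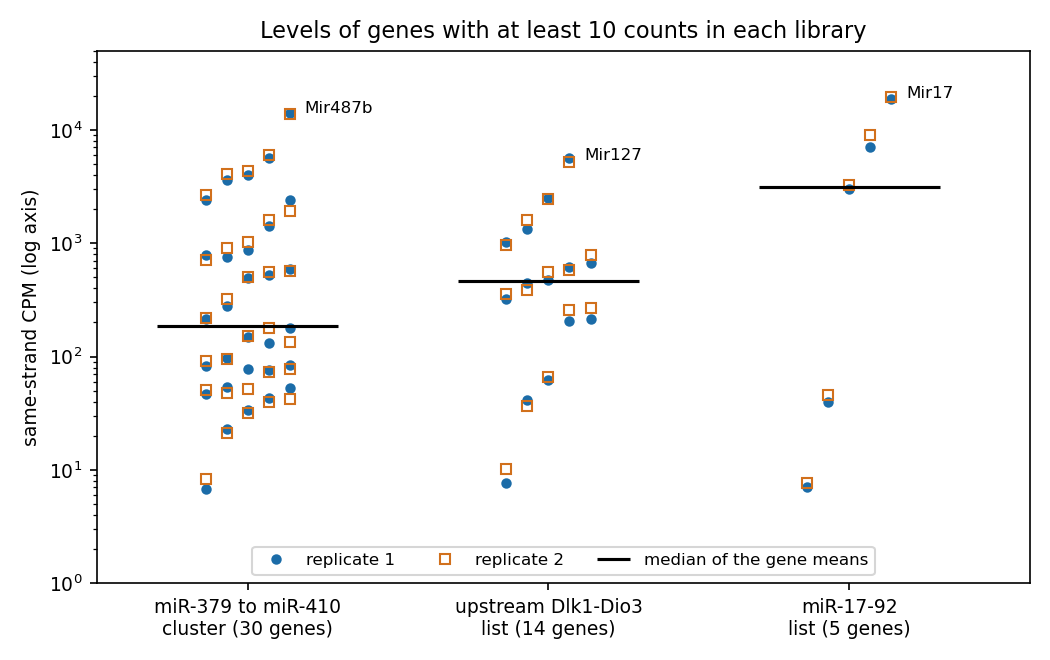
Same-strand CPM, on a log axis, of genes that reached 10 counts in both libraries for the cluster, the upstream Dlk1-Dio3 list and the miR-17-92 list; circles and squares are the 2 libraries and bars the median of the gene means. The cluster's median is 187 CPM beside 466 for the upstream list and 3154 for the miR-17-92 list.

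GENCODE M21 places 39 miRNA hairpins on the plus strand of the window, and 5 of them, Mir299a, Mir380, Mir376b, Mir376a and Mir409, had no row among the members. For 4 of these a row on the minus strand covers the same bases, and its opposite-strand column counts plus-strand reads there. The arms miR-409-3p and miR-376a-3p are shown for the 2 places with the most such reads. The miR-376 family is known for adenosine-to-inosine editing of its seed in brain.
miR-409-3p: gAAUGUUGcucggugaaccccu
miR-376a-3p: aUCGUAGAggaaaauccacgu

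On the row Gm24321 (chr12:109743158-109743237), over the hairpin of Mir409, these reads came to 4620 CPM in replicate 1 and 4043 in replicate 2 on the same scale, between Mir369 and Mir382 in mean level. On Gm25252 (chr12:109723756-109723875), over Mir376a, they came to 2280 and 2707 CPM. On Gm25750, over Mir380, the levels were 505 and 606 CPM, and on Mir299b, over Mir299a, 474 and 557 CPM. Summed, they equalled 20.1% of the cluster's same-strand counts in replicate 1 and 19.6% in replicate 2. Added to the cluster and to the total, they brought its share to 4.74%. They also added to the 3′ segment most, which then held 29.3% and 27.5% of the counts. None of these reads enters the values given above for the members.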

How the data were processed

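Small RNA from 2 neural tube samples was sequenced, with a size range under 30 given in the labels. The deposited values are raw read counts per miRNA gene on mm10 with the M4 annotation, per the file headers. No aligner is named: it is not given in the sources used here. The tables hold an unstranded, a same-strand and an opposite-strand count, a reading inferred from the values, since the last 2 add up to the first in every gene row. Rows that name no gene held 17.4% and 12.2% unmapped, 28.5% and 31.0% multimapping, and 2.95% and 3.10% no-feature reads, and were left out of all totals.

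Positions came from GENCODE M21 by identifier without version. Of the 1973 rows, 1894 matched, and the 79 others held 8 counts. CPM used the same-strand total. Replicate differences used a pseudocount of 0.5 and TMM factors from edgeR 4.0.16 (R 4.3.3) over genes that reached 10 counts in both libraries. Intervals are Wilson or exact at 95% (scipy 1.17.1, Python 3.11.15). Edit distances came from edlib. The ratio was tested on simulated data. With 1 condition no test between groups was made, and where nothing says that samples are separate litters the spread between them may be technical. Alternatives were other columns, totals, count minimums, scalings (DESeq2 1.42.0 size factors), pseudocounts, segments and seeds, and each replicate left out. Members and lists were chosen with earlier results of these data known. Values were printed in full for the 10 highest members, the 3 highest and 3 lowest replicate differences, both ends, members under 10 counts and members of shared seeds; other genes, the arms printed and the adjacent pairs described were chosen after their values were seen.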

Additional observations from a re-analysis of the deposited data

Results flagged for a closer look

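Reads outside the same-strand counts were found on all 4 minus-strand rows of the window, in the opposite-strand column that the members' levels do not use. Over both libraries together this column held 55630 reads on Gm24321, 31540 on Gm25252, 7017 on Gm25750 and 6523 on Mir299b, where a count of 0 would allow 3. The same rows had 0 same-strand counts, except Mir299b with 4 and 5. These 4 rows held 55.3% of all opposite-strand counts of the table in replicate 1 and 52.9% in replicate 2. The log2 difference of replicate 2 to replicate 1 was -0.23 on Gm24321, and 0.21, 0.23 and 0.20 on Gm25252, Gm25750 and Mir299b.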

How the results depend on the processing

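The cluster share of 3.99% became 5.01% without Mir10a, the most abundant gene, in the total, 2.09% of all reads of the library, 2.59% without Mir487b and 4.74% with the plus-strand reads of minus-strand rows. The 5′, middle and 3′ segments moved from 19.6%, 57.2% and 23.2% to 30.2%, 34.1% and 35.7% without Mir487b, and to 18.6%, 53.0% and 28.4% with those reads added. With the window divided into 4 segments the fullest held 44.2%. The SD of log2 levels, 2.70, was 3.36 over members with at least 1 count in each library and 2.56 with at least 100. With no count minimum, 2 members passed a difference of 0.5 and 1 passed 1, Gm27379 with 2 and 4 counts being the addition. Members detected numbered 29 to 32 over the count minimums, the 5 seed families had the same shares by bases 2 to 7, and the unstranded share was 3.93%. The median difference of -0.02 was -0.01 with DESeq2 size factors and changed sign to 0.01 with same-strand totals, beside an SD of 0.22 among members. With 2 libraries, leaving out 1 only returns the value of the other, 3.93% and 4.05% for the cluster share, and was not read as a check of stability. For single genes, 3 levels moved by more than the spread between replicates, those of Mir487b, Mir494 and Mir410 with the unstranded column. With same-strand totals, 5 differences left their counting interval, those of Mir487b, Mir369, Mir382, Mir381 and Mir411, all in the same direction. Both changes rescale every member of a library alike, so that common direction was fixed in advance. No paired analysis was possible because there is only 1 group. Genes under about 10 counts, such as Mir1197 and Gm27379, cannot be ranked at this depth.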

Other observations

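Between the hairpins' GC content and the difference between the libraries, Pearson's r was -0.43 and Spearman's rho -0.47 over the 29 members with at least 100 counts summed. Over all 306 genes the same r was -0.10 and rho -0.16. The relation was noticed after the values were seen, and all points share the same 2 libraries. Mir668, the member with the lowest difference, has 56.1% GC, and Mir667 has 62.0%. Mir134 goes the other way, with 60.6% GC and a difference of 0.21. GC content and level were only weakly related, with an r of -0.21 over 30 members.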
